A study of Mus musculus with 10 samples.

Results

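Lysophosphatidic acid (LPA) is a signalling lipid that is made outside cells, acts on receptors at the cell surface and is removed there by membrane phosphatases. The genes described here cover those steps: the lipid phosphate phosphatases Plpp1, Plpp2 and Plpp3, the LPA-producing enzyme autotaxin (Enpp2), and the receptors Lpar1, Lpar2, Lpar3, Lpar4 and Lpar6. The 9 genes were chosen for these steps, with results of the genotype comparison already known. The probe set standing for each gene was chosen by its mean signal over all 10 arrays, which does not use the genotype. Of the 9, 8 were measured, each through 1 probe set of its own, among 19938 named genes. Enpp2 had no probe set in the annotation used and was not analysed here.

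Autotaxin is a secreted lysophospholipase D that makes LPA from lysophosphatidylcholine. Phosphatases of the PLPP family sit in the plasma membrane with their active site facing outward, strip the phosphate from LPA and related lipids, and so end the signal. LPA receptors are G protein-coupled: Lpar1, Lpar2 and Lpar3 form one family, while Lpar4 and Lpar6 belong to a separate branch close to purine receptors. In smooth muscle LPA is known to cause contraction, and in the mouse uterus Lpar3 is needed for normal timing of implantation and spacing of embryos.

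PRKO animals were homozygous for a lacZ insertion that disrupts the progesterone receptor gene Pgr throughout the body, so the loss was not limited to the oviduct or to the hours after the trigger. They were set against PR+/- animals, which carry the same insertion on 1 allele; no Pgr+/+ group was analysed here. All were prepubertal females of 21 to 23 days that received 5 IU of equine chorionic gonadotropin (eCG), which drives follicle growth, and 44 to 47 h later 5 IU of human chorionic gonadotropin (hCG), the ovulatory trigger. Oviducts were collected whole at 8 h from the hCG injection, and each array carries a pool of 3 animals, giving 5 arrays and 15 animals of each genotype. The comparison asks which oviduct transcripts differ when the progesterone receptor is missing at that time.

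Pgr signal was lower on all 5 PRKO arrays than on any PR+/- array, with log2 values of 6.31 to 6.39 in PRKO and 7.27 to 7.55 in PR+/- (exact permutation test, two-sided, p = 0.00794, which is the lower limit for 252 arrangements). Arrays of a genotype correlated over genes at 0.9877 to 0.9924 in PRKO and at 0.9945 to 0.9964 in PR+/-. Within an array, log2 values had an interquartile range of 3.13 to 3.42 in PRKO and 3.37 to 3.48 in PR+/-. Every PRKO array except replicate 2 was narrower than all PR+/- arrays, so the width of the signal distribution moved in part with genotype. Tissue identity was followed through epithelial markers: the secretory cell factor Pax8 had log2 signals of 8.17 to 8.66 in PRKO and 8.45 to 8.58 in PR+/-, and the ciliated cell factor Foxj1 had 6.87 to 7.29 in PRKO and 7.07 to 7.30 in PR+/-. Other markers of these cells moved both ways, none at a limma adjusted p under 0.05. Among secretory markers Muc1 differed by 0.28 (log2, PRKO minus PR+/-), without overlap of the genotypes, and Krt18 by -0.21. Among ciliated markers Ccdc39 differed by 0.22 and Tekt4 by -0.11. Cyp11a1, a steroidogenic gene of the ovary, spanned 3.41 to 7.10 in PRKO and 3.05 to 7.04 in PR+/-, so the pools differed in ovarian transcript within both genotypes.

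Among the 8 measured genes, 4 fell in PRKO oviducts (Plpp3, Plpp1, Lpar4 and Lpar3), 1 rose (Lpar1) and 3 did not pass (Plpp2, Lpar2 and Lpar6). A gene was called at a limma Benjamini-Hochberg adjusted p under 0.05 over all named genes. Over the whole array 4.96% of genes were called, 3.87% as lower and 1.09% as higher in PRKO. The members' median log2 difference was -0.18, beside 0.03 for all genes. Since the set of genes was proposed with these results in view, the counts describe it and give no independent evidence about it. The values of the 2 genotypes did not overlap for 4 of the 8 genes, against 7.2% of all genes.

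**Figure D1:**
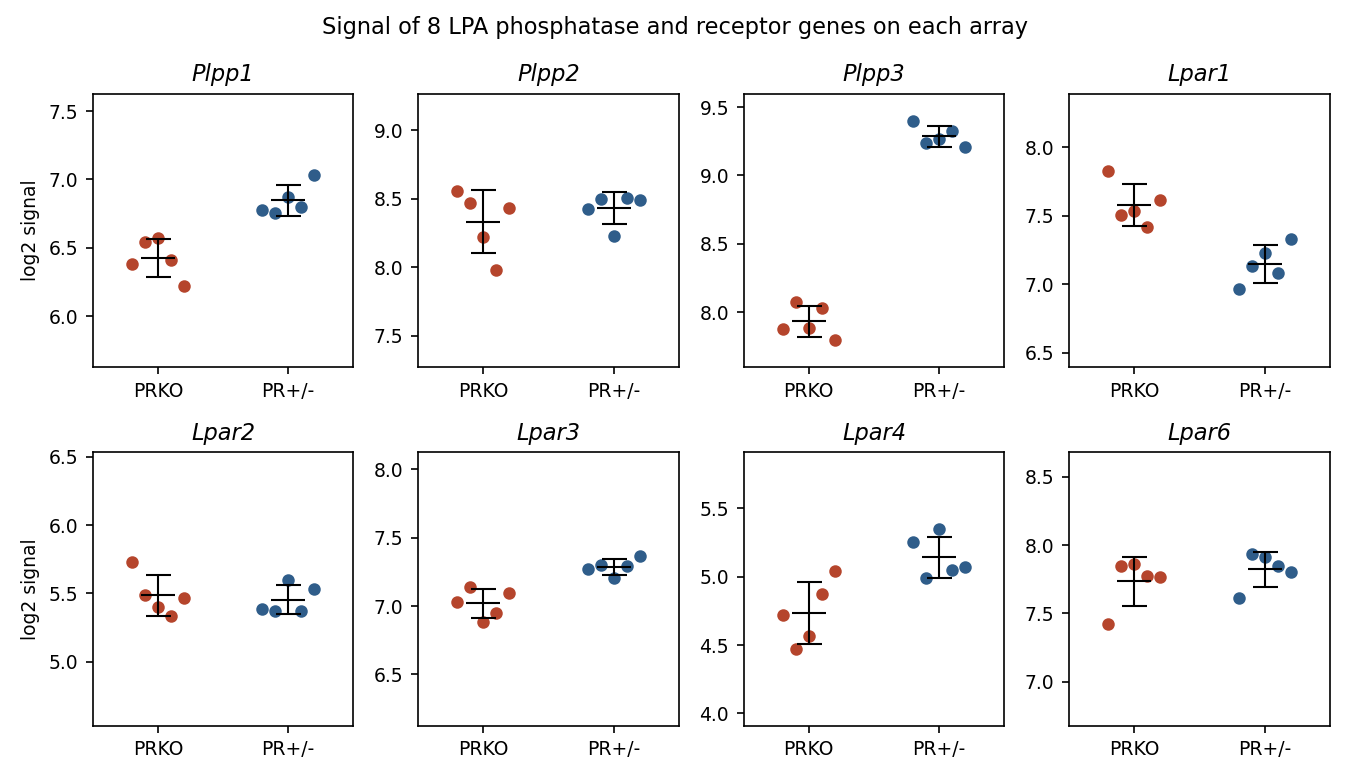
Log2 signal of the 8 measured genes on each of the 5 PRKO (left, red) and 5 PR+/- (right, blue) arrays, with the mean and SD as black bars; every panel spans 2 log2 units. Plpp3 shows the widest gap between the genotypes, Plpp1, Lpar1 and Lpar3 separate by less, and Plpp2, Lpar2, Lpar4 and Lpar6 overlap.

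Plpp3, which encodes lipid phosphate phosphatase 3, an enzyme required for blood vessel formation in the mouse embryo, had log2 signals of 7.88, 8.07, 7.88, 8.03 and 7.80 on PRKO arrays 1 to 5. On PR+/- arrays 1 to 5 they were 9.40, 9.24, 9.27, 9.32 and 9.21. All 5 PRKO values lay below all 5 PR+/- values, and the highest PRKO array was 1.13 log2 units under the lowest PR+/- array. The mean was 7.93 ± 0.11 in PRKO and 9.29 ± 0.076 in PR+/- (SD, n = 5 each). The difference of -1.35 ± 0.076 (log2, SE; 95% interval -1.52 to -1.19) is a 2.56-fold lower signal, or 39.1% of that in PR+/-, at a limma adjusted p of 3.22e-07. Only 2 of the 19938 genes had a smaller p, and Pgr itself ranked 11.

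Plpp1, whose product acts on the same lipids, had log2 signals of 6.38, 6.54, 6.58, 6.41 and 6.22 on PRKO arrays 1 to 5 and of 6.78, 6.75, 6.87, 6.80 and 7.04 on PR+/- arrays 1 to 5. The 2 sets did not overlap, with a gap of 0.18 between them. Plpp1 was 1.34-fold lower in PRKO (log2 -0.42 ± 0.086, limma adjusted p = 0.0109). When the interquartile range of the array entered the fit as a covariate, its log2 difference was -0.36 and its call was lost (adjusted p = 0.188).

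Plpp2, the third of these phosphatases, did not pass. Its log2 signals were 8.56, 8.47, 8.22, 7.98 and 8.43 on PRKO arrays 1 to 5, against 8.43, 8.50, 8.23, 8.51 and 8.49 on PR+/- arrays 1 to 5. PRKO replicates 3 and 4 were the lowest of the 10 arrays and PRKO replicate 1 the highest, so the genotypes overlapped widely. The difference was -0.10 with a 95% interval of -0.33 to 0.13, which leaves out a change as large as that of Plpp3 (limma adjusted p = 0.620).

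**Figure D2:**
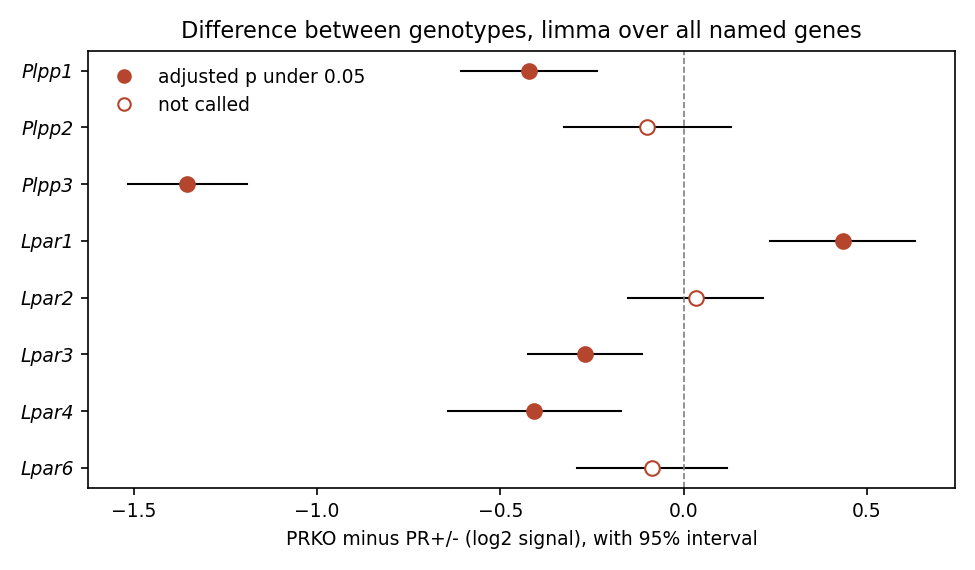
Log2 difference of PRKO minus PR+/- for each measured gene (points) with its 95% interval (lines); filled points passed a limma adjusted p of 0.05. Plpp3 lies at -1.35, apart from Plpp1, Lpar4 and Lpar3 at -0.42, -0.41 and -0.27, and Lpar1 is the only one of the 8 that rose, at 0.43.

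The starts of these genes are shown as a description, and their part in the differences between members was not tested. RefSeq promoter windows (GRCm38.p6, 250 bases before to 50 after the transcription start) were found for 7 of the 9 genes, with 3 alternative starts for Lpar1; Plpp1 and Enpp2 were not searched. Searched on both strands were AGAACA, the half-site that progesterone and glucocorticoid receptors can bind, ACANNNTGT, the core of the full palindromic element, GGTCA, an estrogen receptor half-site, TATAAA and CCAAT. A match is a description of letters and not a binding site. AGAACA was found in the windows of Plpp3, 195 bases before the start, and of Plpp2, 240 bases before it, and in 19.0% of all 32851 windows. Both phosphatase windows searched hold it, that of Plpp3, which fell, and that of Plpp2, which did not pass. The motif ACANNNTGT, which can overlap AGAACA and lies in 6.85% of all windows, was in none of the members' windows. The Plpp3 window is chr4:105157097-105157396 on the plus strand and the Plpp2 window chr10:79533738-79534037 on the minus strand, printed 5′ to 3′ with the half-site (AGAACA or its reverse complement) in capitals.
Plpp3: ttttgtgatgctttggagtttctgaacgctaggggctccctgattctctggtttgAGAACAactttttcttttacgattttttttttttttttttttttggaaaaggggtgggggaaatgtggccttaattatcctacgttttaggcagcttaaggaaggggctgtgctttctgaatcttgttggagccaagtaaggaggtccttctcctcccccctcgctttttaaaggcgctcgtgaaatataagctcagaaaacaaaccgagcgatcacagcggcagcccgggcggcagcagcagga
Plpp2: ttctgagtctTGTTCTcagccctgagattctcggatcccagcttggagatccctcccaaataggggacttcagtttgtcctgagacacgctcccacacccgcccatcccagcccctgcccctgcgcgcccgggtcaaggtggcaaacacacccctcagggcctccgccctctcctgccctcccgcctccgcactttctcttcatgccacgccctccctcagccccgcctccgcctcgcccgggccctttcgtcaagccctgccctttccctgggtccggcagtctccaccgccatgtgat

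Among receptor windows, that of Lpar4 (chrX:106920375-106920674, plus strand) held CCAAT 4 times, at 223, 106, 70 and 32 bases before the start. It is shown with those matches, or their reverse complement, in capitals. CCAAT was in 37.4% of all windows and, among the 9 windows searched here, otherwise only in 1 of the 3 for Lpar1. The Lpar4 window also held GGTCA, which overlaps its first CCAAT match by 2 bases, and the reverse complement of TATAAA, while the Lpar3 window held none of the 5 motifs. GGTCA, in 40.5% of all windows, was also found for Lpar2, Lpar6 and Plpp2, and TATAAA, in 13.62%, for none of the other genes searched.
Lpar4: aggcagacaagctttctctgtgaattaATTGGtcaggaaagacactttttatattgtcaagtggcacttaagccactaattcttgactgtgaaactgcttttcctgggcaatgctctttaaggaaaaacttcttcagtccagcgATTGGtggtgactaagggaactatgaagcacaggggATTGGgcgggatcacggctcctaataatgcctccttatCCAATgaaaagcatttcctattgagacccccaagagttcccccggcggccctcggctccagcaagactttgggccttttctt

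Of the 5 receptor genes, Lpar1 rose, Lpar3 and Lpar4 fell and 2 did not pass. Lpar1, a widely expressed receptor that signals through Gi, Gq and G12/13 proteins, had log2 signals of 7.82, 7.50, 7.53, 7.42 and 7.61 on PRKO arrays 1 to 5. On PR+/- arrays 1 to 5 they were 6.96, 7.13, 7.23, 7.08 and 7.33. Every PRKO value exceeded every PR+/- value, by at least 0.090. The signal was 1.35-fold higher in PRKO (log2 0.43 ± 0.093, limma adjusted p = 0.0145). The call was lost with the interquartile range as a covariate (log2 0.33, adjusted p = 0.260), without PRKO replicates 1 and 5 (0.34, adjusted p = 0.0635) and without PR+/- replicate 4 and PRKO replicate 3, the arrays with the most ovarian transcript (0.43, adjusted p = 0.0675).

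Lpar3, the receptor with a known role in mouse uterus, had log2 signals of 7.03, 7.14, 6.88, 6.95 and 7.09 on PRKO arrays 1 to 5. On PR+/- arrays 1 to 5 they were 7.27, 7.30, 7.21, 7.29 and 7.37. The sets did not overlap, though only 0.067 log2 units separated the highest PRKO from the lowest PR+/- array. The signal was 1.21-fold lower in PRKO (log2 -0.27 ± 0.073, limma adjusted p = 0.0487). This call stood just inside the threshold and held in 2 of the 10 fits that left out 1 array, those without PRKO replicate 2 or 5 (adjusted p 0.0349 to 0.114 over the 10), while quantile normalization also ended it (log2 -0.23, adjusted p = 0.104). It was lost in 15 of 24 alternatives in all, with an adjusted p of up to 0.233.

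Lpar4, a receptor that signals through G12/13 and is found on endothelial and mesenchymal cells, was 1.33-fold lower in PRKO (log2 -0.41 ± 0.11, limma adjusted p = 0.0498). Its log2 signals were 4.72, 4.47, 4.57, 4.87 and 5.04 on PRKO arrays 1 to 5 and 5.25, 4.99, 5.35, 5.05 and 5.07 on PR+/- arrays 1 to 5. Of the PRKO arrays 4 lay below every PR+/- array, and PRKO replicate 5 lay above PR+/- replicate 2, so the genotypes overlapped. The call held in 2 of the 10 fits that left out 1 array, those without PRKO replicate 4 or 5 (adjusted p 0.0173 to 0.124 over the 10), and was lost in 13 of 23 alternatives in all, with an adjusted p of up to 0.147. Lpar4 and Lpar2 were among the dimmest 50% of probe sets, where an array can understate a fold change.

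Lpar2 and Lpar6 did not pass. Lpar2, a receptor that signals through Gi, Gq and G12/13 proteins, had log2 signals of 5.34 to 5.73 in PRKO (median 5.47) and 5.37 to 5.60 in PR+/- (median 5.39), and its difference was 0.03 (95% interval -0.15 to 0.22, limma adjusted p = 0.852). Lpar6, which signals through G12/13 and in humans is known from inherited hair loss, had 7.42 to 7.86 in PRKO (median 7.77) and 7.61 to 7.94 in PR+/- (median 7.85), with a difference of -0.09 (95% interval -0.29 to 0.12, adjusted p = 0.631). For both genes the genotypes overlapped, and the lowest Lpar6 value was that of PRKO replicate 1.

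Spread was larger in PRKO for all 8 measured genes, with SDs of 0.10 to 0.23 in PRKO and 0.059 to 0.15 in PR+/-. The same held for 74.7% of all genes. The SD in PRKO was largest for Plpp2 (0.23) and Lpar4 (0.23).

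**Figure D3:**
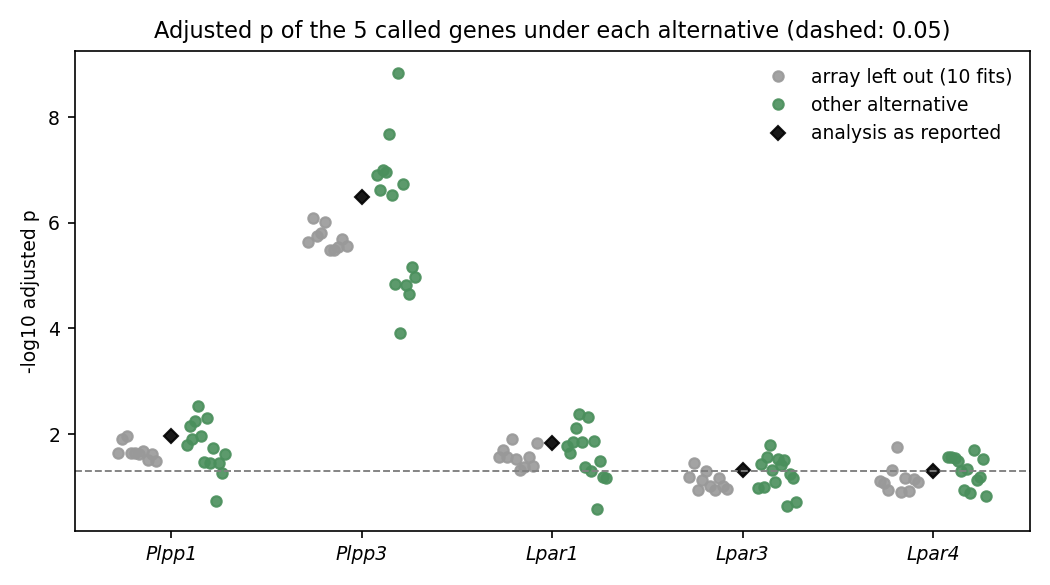
Adjusted p on a -log10 scale for the 5 called genes in the analysis as reported (diamonds), with each array left out (grey) and in the other alternatives (green); the dashed line is 0.05. Plpp3 stays above the line in all 24 alternatives, Plpp1 and Lpar1 fall under it in 2 and 3, and Lpar3 and Lpar4 start at it and fall under it in 15 of 24 and 13 of 23.

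The genes with the most similar pattern over the 10 arrays were found by Pearson's r, which here largely follows the step between genotypes and shares arrays and normalization, so it is a description. Predicted loci, clone names, olfactory and vomeronasal receptors, major urinary proteins, microRNAs and small nucleolar RNAs were passed over. Closest to Plpp3 were Tacc1, a coiled-coil protein of centrosomes (r = 0.988), Des, the muscle intermediate filament desmin (0.987), and Pgr (0.985). Over deviations from the genotype means these r values were 0.45, 0.52 and 0.14. For Plpp1 they were Rbpms, an RNA-binding protein (0.969), the transcription factor Nr2f2 (0.966) and the endothelial sialomucin Emcn (0.964), which kept r values of 0.91, 0.86 and 0.86 within genotypes. These genes were picked for a high r over the same arrays, and where the step is small a high r needs a high r within genotypes, so the values of the 2 phosphatases are not comparable.

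Lpar1 was nearest to Insyn2a (r = 0.960), Vcam1, an adhesion molecule that binds leukocyte integrins (0.951), and Usp29 (0.950). Of these, Vcam1 rose in PRKO (log2 0.48, limma adjusted p = 0.00513), and the log2 differences of Insyn2a and Usp29 were 0.29 and 0.16 without a call. Lpar3 was nearest to Sumo2 (0.967), Isca1 (0.962) and the adhesion protein gene Lims2 (0.957). Of these, Lims2 fell (log2 -0.63, limma adjusted p = 5.44e-04), and Sumo2 and Isca1 were not called (adjusted p = 0.107 and 0.184). Lpar4, with the lowest likeness, was nearest to the troponin gene Tnnt2 (0.906), the chemokine gene Ccl12 (0.901) and Elovl4 (0.886). Tnnt2 fell just inside the threshold (limma adjusted p = 0.0499), and Ccl12 and Elovl4 were not called (0.113 and 0.266). Over deviations from the genotype means, in the same order, r was 0.90, 0.80 and 0.88 for Lpar1. It was 0.85, 0.83 and 0.82 for Lpar3 and 0.78, 0.80 and 0.88 for Lpar4.

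Other genes of LPA and sphingosine 1-phosphate (S1P) metabolism and signalling were followed in 7 lists. Of 97 measured genes, 7 fell, 3 rose and 87 did not pass, with a median log2 difference of -0.04, beside 0.03 for all genes. The share called was 10.3%, against 4.96% of all genes (3.87% lower and 1.09% higher in PRKO). The share of all genes includes dim probe sets. With the dimmest 50% left out, 1153 genes were called over the array, against 988 as reported, and 12 pathway genes, against 10. Both shares were thus higher among brighter genes. Because the lists were chosen with earlier results of these data known, these shares are a description. Among 17 genes that can supply LPA or its precursors, 3 fell and 14 did not pass (median -0.03). Pla1a, a secreted phospholipase A1 known mainly for making lysophosphatidylserine, had log2 signals of 5.06 to 5.67 in PRKO and 6.01 to 6.55 in PR+/-, and was 1.86-fold lower (log2 -0.89 ± 0.13, limma adjusted p = 9.43e-04). Gdpd3, a lysophospholipase D that works inside cells, was 1.72-fold lower (log2 -0.78 ± 0.17, adjusted p = 0.0187), with 6.06 to 6.67 in PRKO and 6.89 to 7.91 in PR+/-. Pla2g6, a calcium-independent phospholipase A2, fell by 0.36 on the log2 scale (adjusted p = 0.0446). The values of Pla1a and Gdpd3 did not overlap between genotypes and those of Pla2g6 did, and the call of Pla2g6 was lost in 15 of 24 alternatives. That of Gdpd3 was lost in 4 of 24, among them the fit without PR+/- replicate 1 (adjusted p = 0.0549).

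Among 16 acyltransferases and breakdown enzymes, 1 rose, 1 fell and 14 did not pass (median -0.12). Agpat4, which converts LPA to phosphatidic acid, fell by 0.39 on the log2 scale (limma adjusted p = 0.0174), a call lost in 3 of 24 alternatives, one of them the fit without PR+/- replicate 2 (adjusted p = 0.0521). Lpcat2, which re-acylates lysophosphatidylcholine and makes platelet-activating factor, rose by 0.50 (adjusted p = 0.0304), a call lost in 12 of 24 alternatives. Of 14 other lipid phosphatase family genes 1 rose, Plppr4, a brain-enriched relative without known phosphatase activity (log2 0.35, adjusted p = 0.0192), and 13 did not pass, among them Plpp4, Plpp5, Plpp6 and Plpp7 at log2 differences of 0.14, -0.11, -0.25 and 0.12. The call of Plppr4 was lost in 4 of 23 alternatives, with quantile (adjusted p = 0.0823) and cyclic loess (0.104) normalization, without PR+/- replicate 4 (0.0509) and without it and PRKO replicate 3 (0.0918).

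None of 5 other ENPP genes and none of 11 other lysophospholipid receptor genes passed, the S1P receptors included, with medians of 0.12 and 0.02. In the S1P turnover list 1 of 13 genes rose, Sphk1, the kinase that makes S1P (log2 0.40 ± 0.084, limma adjusted p = 0.0138), a call lost in 3 of 24 alternatives. Of 21 genes of signalling below LPA receptors, G protein subunits among them, 3 fell and 18 did not pass (median -0.15). Gnai1, a Gi alpha subunit, was 1.65-fold lower (log2 -0.72 ± 0.080, adjusted p = 7.35e-05), with 7.07 to 7.39 in PRKO and 7.84 to 8.07 in PR+/-. Rhob, a stress-induced small GTPase, was 1.74-fold lower (log2 -0.80 ± 0.093, adjusted p = 1.27e-04), and Plcb1, the phospholipase C that Gq activates, 1.57-fold (log2 -0.65 ± 0.11, adjusted p = 0.00225; adjusted p = 0.102 and no call with the interquartile-range covariate). The PRKO values of these 3 genes lay below every PR+/- value.

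**Figure D4:**
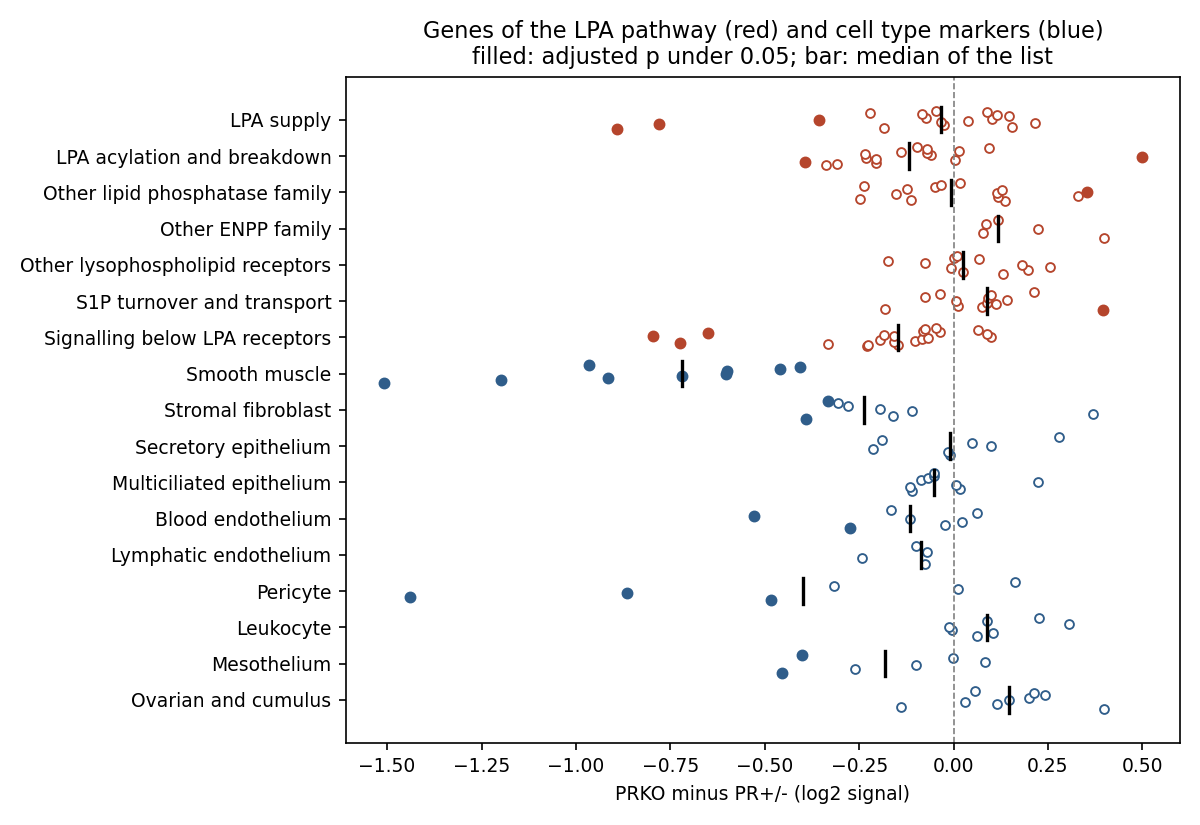
Log2 difference of PRKO minus PR+/- for each gene of 7 pathway lists (red) and 10 cell type marker lists (blue); filled points passed a limma adjusted p of 0.05 and black bars are list medians. In the pathway lists most points lie around 0 with 10 filled, while all 9 smooth muscle markers lie to the left at a median of -0.72.

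Cell type markers moved in part with Plpp3. For scale, 3.87% of all genes were called as lower in PRKO and 1.09% as higher. All 9 smooth muscle markers fell (median log2 difference -0.72), and their summed linear signal was 5478 to 6962 in PRKO and 9798 to 10916 in PR+/-. A sum of linear signals is weighted to the brightest genes of its list. Of 6 pericyte markers 3 fell (median -0.40), with sums of 557 to 647 in PRKO and 823 to 1018 in PR+/-. In bulk tissue fewer cells of a type and less RNA per cell cannot be told apart, and the part of these markers in the falls of Plpp3 and Plpp1 was not tested.

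Of 8 stromal fibroblast markers 2 fell (median -0.24), of 7 blood endothelial markers 2 (Pecam1 and Emcn, median -0.12) and of 6 mesothelial markers 2 (median -0.18). Beside the fall of Lpar4, the endothelial sum was 503 to 592 in PRKO and 583 to 639 in PR+/-, with overlap, and its part in that fall was not tested. None of 7 secretory, 9 ciliated, 4 lymphatic, 7 leukocyte or 9 ovarian markers passed, with medians of -0.01, -0.05, -0.09, 0.09 and 0.15. Beside the rise of Lpar1, the leukocyte sum was 579 to 698 in PRKO and 517 to 605 in PR+/-, and its part in that rise was not tested. The table holds no detection calls, so no marker can be called absent.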

How the data were processed

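Per the labels' protocols, total RNA of pooled oviducts was turned into biotinylated cRNA with an Affymetrix kit for whole transcripts and hybridised to 10 arrays, 5 PRKO and 5 PR+/- by the genotype label. The submitters' processing notes name Partek as the authors' software. No label states its version, background correction or normalization. The deposited log2 values run from 1.09 to 13.58. Their log2 scale is inferred from that range, since no label states it, and the array medians of 5.20 to 5.28 show a common level, so no further normalization was applied. No pair of arrays held identical values.

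Of 35557 rows, 21789 had 1 gene symbol in the platform annotation, 1621 several and 12147 none listed. Gene IDs of 21698 rows were found in a GRCm38.p6 gene table and no symbol changed. The probe set with the highest mean stood for a gene, which left 19938 genes, all tested without a filter on dim signal.

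The comparison of genotypes used limma (3.58.1, under R 4.3.3; 8 residual and 6.08 prior degrees of freedom), with Benjamini-Hochberg adjustment over all genes. After a log2 difference ± gives its SE, after a mean the SD, and 95% intervals use the moderated variance. Precision is limited by the small number of arrays. The labels call the arrays biological replicates, each a pool of its own, and the spread behind each p-value is that among pools. The fit was tested on simulated data with known changes, drawn with the same SD in both genotypes. In the data 74.7% of all genes had a larger SD in PRKO, so that test does not cover the unequal spread. Members and lists were chosen with earlier results of these data known. The naming rule took all members and up to 3 called genes of each pathway list by smallest p. It also took the 3 genes nearest in pattern to each called member, with the gene classes given above passed over. Pax8, Foxj1, Muc1, Krt18, Ccdc39, Tekt4, Cyp11a1, Plpp4 to Plpp7, Pecam1 and Emcn were named after their values were seen.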

Additional observations from a re-analysis of the deposited data

Results flagged for a closer look

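Over 38 groups of 5 arrays (19 named genes in each genotype), 1 array stood apart by Dixon's ratio at the 95% critical value, where chance gives about 1 in 20. Lpar6 in PRKO replicate 1 had a log2 signal of 7.42, against 7.76 to 7.86 on the other PRKO arrays, a ratio of 0.774. Without that array the log2 difference of Lpar6 was -0.0091 and it was not called (limma adjusted p = 0.960).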

How the results depend on the processing

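Plpp3 stayed lower and called in all 24 alternatives (log2 -1.39 to -1.22, adjusted p 1.44e-09 to 1.23e-04), as did Pgr, Pla1a, Gnai1 and Rhob. Of the 8 measured genes 5 were called as reported. The number was 3 (Lpar1, Plpp1 and Plpp3) with every row tested and with the replicate block, which changed the calls of Lpar3 (adjusted p = 0.0579) and Lpar4 (0.0647) only among members. Same-numbered arrays deviated together at r over 0.1 in 4 of 5 pairs, with -0.013 for number 3. The numbers were to be taken as pairs only if all 5 passed, so the reported fit has no block. This rule does not show that same-numbered arrays share nothing. The number of called members was 1 (Plpp3) with the interquartile range as a covariate or at an adjusted p under 0.01. It was 2 without PRKO replicates 1 and 5 (Plpp3, Lpar4), and 2 without PR+/- replicate 4 and PRKO replicate 3 (Plpp3, Plpp1). Leaving out 1 array gave 3 to 5, with 3 without PRKO replicate 1 or 3 or any PR+/- array. Plpp1 lost its call in 2 alternatives, the covariate and without PRKO replicates 1 and 5 (adjusted p = 0.0537). Lpar2 changed sign without PRKO replicate 1 (log2 -0.028, in a range of -0.028 to 0.070 with 1 array left out) and without PRKO replicates 1 and 5 (-0.043), as did Lpar6 without PRKO replicates 1 and 5 (0.0070), none of them called. Over the array, where 988 genes were called, the number was 322 with the covariate, 562 without PR+/- replicate 4 and PRKO replicate 3, 412 at an adjusted p under 0.01, and 581 to 1165 with 1 array left out (581 and 598 without PR+/- replicates 1 and 2). Pathway genes called, 10 as reported, were 4 with the covariate, 4 at 0.01, 5 without PR+/- replicate 4 and PRKO replicate 3, and 7 to 12 with 1 array left out; the block gave 12. Alternatives for Pgr and the pathway genes were added after the data were seen. Fits with fewer arrays have less precision, and the covariate itself moved in part with genotype. Other causes were not tested. With the dimmest 50% of probe sets left out, Lpar2 and Lpar4 among members and Plppr4 among called pathway genes gave no value.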
